A study of Caenorhabditis elegans with 6 samples.

Results

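The fatty acid desaturases of *Caenorhabditis elegans* are 7 enzymes, encoded by *fat-1*, *fat-2*, *fat-3*, *fat-4*, *fat-5*, *fat-6* and *fat-7*. The rule takes them by gene name alone, and all 7 were found among the 47157 gene IDs of the deposited tables. All 7 also passed the filter on low values, which kept 13756 genes for testing. Transcript levels were measured by RNA sequencing of whole young adults, as 3 wild-type libraries from N2 and 3 libraries from the strain *blmp-1(s71)*. The labels give no allele other than *s71* and no treatment. In both groups, embryos released by bleaching hatched into synchronized first-stage larvae and were grown to young adulthood on NGM agar, the standard worm medium. RNA was taken up in TRIzol, and libraries were built with an Illumina TruSeq RNA kit. The mutant is represented by 1 allele, and RNA of all tissues was pooled, so fewer cells of a type and less RNA per cell cannot be told apart.

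Desaturases insert double bonds into fatty acyl chains. Worms make their polyunsaturated fatty acids with their own enzymes, in a chain in which each desaturase acts at a set step. FAT-5, FAT-6 and FAT-7 are the delta-9 desaturases, which place the first double bond into a saturated chain. FAT-5 prefers palmitic acid, while FAT-6 and FAT-7 act mainly on stearic acid and yield oleic acid. FAT-2 converts oleic acid to linoleic acid, the entry to the polyunsaturated series, and FAT-1 is the omega-3 desaturase that converts omega-6 to omega-3 chains. FAT-3 acts on linoleic and alpha-linolenic acid before elongation, and FAT-4 acts after elongation and yields arachidonic and eicosapentaenoic acid. In the worm the intestine, the main site of fat storage and yolk production, is a major site of this pathway, and the nuclear receptor NHR-49 is known to sustain expression of the delta-9 genes. The gene *blmp-1* codes for a DNA-binding zinc finger protein, the worm relative of mammalian BLIMP1.

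The libraries held 5255125 to 15218178 reads on genes, and 3 reads corresponded to 0.197 to 0.571 CPM (reads of a gene on a scale with the same total in every library). Levels below are scaled CPM, the deposited CPM divided by a TMM factor (trimmed mean of M values, which aligns the libraries on most genes) of 0.813 to 1.21. The *blmp-1* transcript itself was at 14.3, 9.89 and 12.3 scaled CPM in wild type and at 22.1, 12.95 and 8.62 in the mutant, so its level does not separate the groups (log2 difference 0.16, limma adjusted p = 0.697). The replicate-1 libraries stood apart in both groups. They held the fewest reads, and ribosomal RNA genes took 4.005% and 4.56% of their reads against 0.841% to 1.28% elsewhere. Wild-type library 1 also gave 13.5% of its reads to vitellogenin (yolk protein) genes, against 3.69% to 5.95% in the other 5.

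*fat-1*, *fat-2*, *fat-3*, *fat-4* and *fat-6* lie on chromosome IV, and *fat-5* and *fat-7* on chromosome V. On the WBcel235 annotation, *fat-1* (WBGene00001393) spans IV:13315644-13318811 on the plus strand, and *fat-2* (WBGene00001394) follows at IV:13323873-13326395 on the same strand, 5061 bases downstream. *fat-4* (WBGene00001396, IV:9799429-9802226) and *fat-3* (WBGene00001395, IV:9803023-9806119) are likewise neighbours on the plus strand, 796 bases apart. No protein-coding gene lies within either gap. *fat-6* (WBGene00001398) occupies IV:11913692-11915687 and *fat-7* (WBGene00001399) V:7151353-7153146, both on the minus strand. *fat-5* (WBGene00001397) occupies V:17725004-17726818 on the plus strand and is the 1 member whose span meets other annotated genes, the potassium channel gene *twk-42* and the non-coding gene W06D12.8, both on the opposite strand. Exons shared with them cover 28 bases. *twk-42* had 26 to 119 reads in a library and W06D12.8 at most 1. The annotated exons of the members add up to 1104 bases for *fat-5* and up to 1540 for *fat-4*. FAT-6 and FAT-7 are close paralogs, and how reads that match several places were counted is not given in the sources used here, so the split of reads between *fat-6* and *fat-7* is uncertain.

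Desaturase transcripts were abundant, and *fat-2* led the family in every library. On the per-length scale (deposited TPM, which also corrects for gene length), wild-type *fat-2* was at 583 ± 158 (SD, n = 3), followed by *fat-6* at 377 ± 106 and *fat-1* at 334 ± 73.4. *fat-7* came next at 226 ± 115, then *fat-4* at 137 ± 37.9, *fat-3* at 99.3 ± 23.3 and *fat-5* at 62.6 ± 31.7. By mean TPM over the 6 libraries, *fat-2* ranked 195 of the 13756 tested genes and *fat-5*, the lowest member, ranked 1231. In this order 3 steps held in each wild-type library, *fat-2* above *fat-6*, *fat-1* above *fat-7* and *fat-7* above *fat-4*. The other neighbours did not separate beyond their spread. The log2 TPM ratio was 0.16 ± 0.18 for *fat-6* over *fat-1*, 0.46 ± 0.70 for *fat-4* over *fat-3* and 0.78 ± 1.060 for *fat-3* over *fat-5* (SD, n = 3), and each of these was positive in 2 of 3 libraries.

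The top 5 were in the same order in the mutant, with *fat-2* at 968 ± 245 TPM, *fat-6* at 559.7 ± 207, *fat-1* at 373 ± 74.7, *fat-7* at 218 ± 57.8 and *fat-4* at 195 ± 48.9 (SD, n = 3). Each of these stood above the next in all 3 mutant libraries. *fat-5*, at 166 ± 64.04 TPM, came before *fat-3*, at 139.6 ± 15.99. These last 2 did not separate, since *fat-5* exceeded *fat-3* in 1 of 3 mutant libraries and the log2 ratio was 0.19 ± 0.48. *fat-4* exceeded *fat-5* in all 3 mutant libraries, by 0.27 ± 0.18 on the log2 scale.

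Against wild type, no desaturase passed the test in the mutant, and the gene with the largest difference was *fat-5*. By limma with Benjamini-Hochberg adjustment over all tested genes, 0 of 7 members were called at 0.05, where 22.3% of tested genes were called, 8.84% as higher and 13.4% as lower in the mutant. At an unadjusted p under 0.05 the count was 1 of 7, *fat-5*, beside 44.8% of tested genes. edgeR on reads recovered from the CPM values called 0 of 7 members and 17.7% of tested genes. DESeq2 on the same reads called 1 of 7, again *fat-5*, and 28.6% of the genes it gave an adjusted p. The members' median log2 difference (mutant minus wild type) was 0.24, with 5 positive and 2 negative values, beside a median of 0.07 over all tested genes. The summed level of the family was 1488, 2728 and 2340 scaled CPM in wild type and 2133, 3278 and 2332 in the mutant, so the groups overlapped.

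**Figure D1:**
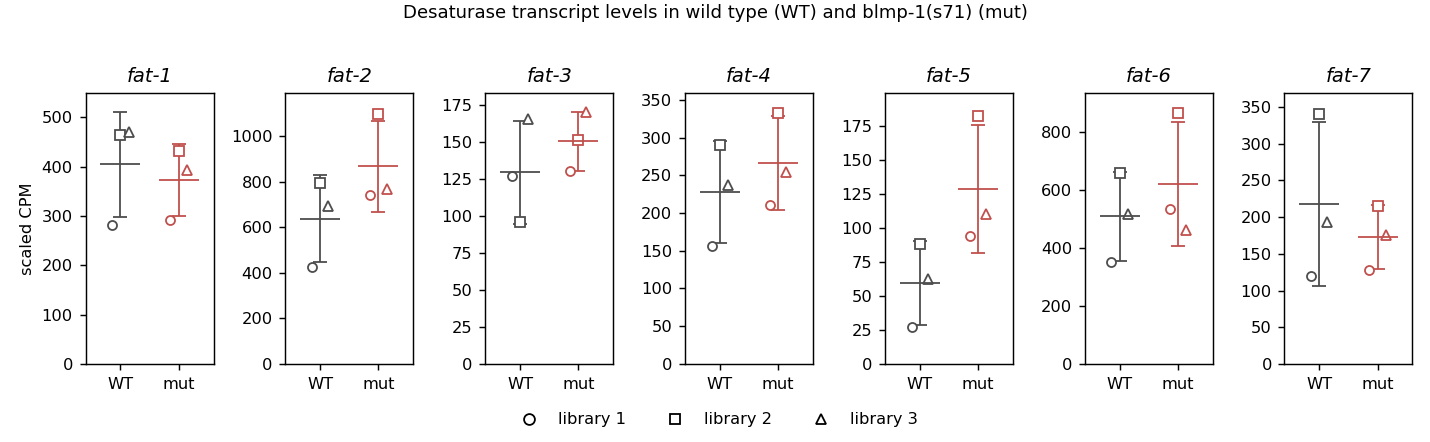
Scaled CPM (vertical axes, from 0) of each desaturase in the 3 wild-type (WT, grey) and 3 *blmp-1(s71)* (mut, red) libraries; symbols mark the library number, horizontal bars the mean and whiskers the SD over 3 libraries. *fat-5* is the panel in which the groups do not overlap, from 27.1 to 88.2 in wild type and from 93.9 to 182 in the mutant.

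*fat-5*, the palmitic acid desaturase, was at 27.1, 88.2 and 62.6 scaled CPM in wild type and at 93.9, 182 and 109.9 in the mutant. All 3 mutant libraries lay above all 3 wild-type libraries, which held for 1 of 7 members and for 22.6% of tested genes. No member lay below wild type in this way, as 26.0% of tested genes did, and in either direction 48.6% of tested genes had groups that did not overlap. The gap was narrow, since the 95% counting interval of wild-type library 2, 83.2 to 93.5, overlapped that of mutant library 1, 86.9 to 101.3. These exact Poisson intervals cover counting error only. The means were 59.3 ± 30.7 and 129 ± 46.8 (SD, n = 3), a ratio of means of 2.17. The fitted log2 difference was 1.20 (SE 0.44), with a limma p of 0.0275 and an adjusted p of 0.0776. As a fold this fitted difference is 2.29, with a 95% interval of 1.13 to 4.67, and folds below are likewise taken from the fit.

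That adjusted p of *fat-5* lay near the threshold, and the call depended on the method. The adjusted p was 0.0628 by edgeR and 0.0210 by DESeq2. Wild-type library 1 was the lowest of the 6 and rested on 116 reads, against 668 to 3018 reads in the other 5. Its counting error of 9.28% was small against the spread between wild-type libraries. Without both replicate-1 libraries the log2 difference of *fat-5* was 1.003 (limma adjusted p = 0.112), and with each library left out in turn it ran from 0.82 to 1.56 with adjusted p from 0.0683 to 0.238. The overlapping gene *twk-42* had a log2 difference of 0.48 (limma adjusted p = 0.145).

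*fat-6* and *fat-7*, the stearic acid desaturases, did not separate the groups and had differences of opposite sign. *fat-6* was at 352, 657 and 518 scaled CPM in wild type and at 536, 864 and 462 in the mutant. Mutant library 2 was highest, and the other mutant libraries lay inside the wild-type range. The log2 difference of *fat-6* was 0.28 (SE 0.29, limma adjusted p = 0.460), or 1.21-fold with a 95% interval of 0.781 to 1.88. *fat-7* was at 120.1, 339.9 and 193 scaled CPM in wild type and at 128, 216 and 175 in the mutant. Both its lowest and its highest value of the 6 were in wild type, in libraries 1 and 2, and the mutant libraries lay between them. The log2 difference of *fat-7* was -0.23 (SE 0.36, limma adjusted p = 0.625), or 0.851-fold with a 95% interval of 0.487 to 1.49. Without wild-type library 2 the sign turned, to 0.15.

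*fat-2*, the most abundant member, was at 425, 793 and 695 scaled CPM in wild type and at 742, 1100.2 and 767 in the mutant. Mutant library 2 was highest and wild-type library 1 lowest, and wild-type library 2 lay above 2 of the mutant libraries, so the groups overlapped. The means were 638 ± 191 and 869.8 ± 199.9 (SD, n = 3). The log2 difference was 0.47 (SE 0.27, limma adjusted p = 0.182), or 1.39-fold with a 95% interval of 0.927 to 2.08. *fat-1*, its neighbour on the chromosome, was at 282, 463 and 469 in wild type and at 292, 432 and 394 in the mutant. In both groups library 1 was low and libraries 2 and 3 were close to each other. The log2 difference of *fat-1* was -0.10 (SE 0.26, limma adjusted p = 0.769), or 0.932-fold with a 95% interval of 0.632 to 1.37.

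The front-end desaturase genes *fat-3* and *fat-4*, which serve the steps before and after elongation, overlapped between the groups as well. *fat-3* was at 127, 95.8 and 166 scaled CPM in wild type and at 130.2, 151 and 170.0 in the mutant. It was the member with its lowest value in wild-type library 2, where the other 6 were lowest in wild-type library 1. *fat-4* was at 156, 291 and 236 in wild type and at 210.3, 333 and 254 in the mutant. Within each group *fat-4* was lowest in library 1 and highest in library 2. Both genes had a log2 difference of 0.24, with an SE of 0.24 for *fat-3* (limma adjusted p = 0.440) and 0.27 for *fat-4* (0.488). The 95% intervals of the fold ran from 0.819 to 1.71 and from 0.787 to 1.78.

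The sign of the small differences depended on how the libraries were scaled. The median log2 difference of all tested genes was 0.07 with TMM, 0.18 with upper-quartile scaling, 0.30 on deposited TPM and 0.35 with library size alone, and the share of called genes that were higher in the mutant was 39.7%, 60.8%, 87.3% and 94.2%, in that order. *fat-1* had a log2 difference of 0.032, 0.16 and 0.23 under the other 3 scalings, and *fat-7* of -0.10, 0.034 and 0.096. Relative to the median of all genes, *fat-1* lay between -0.17 and -0.12 and *fat-7* between -0.30 and -0.26 under the 4 scalings. *fat-5* lay 1.12 to 1.17 above that median and *fat-2* 0.40 to 0.45 above it. *fat-5* was called with upper-quartile scaling (log2 1.33, limma adjusted p = 0.0446) and on deposited TPM (1.46, 0.0473), and not with library size alone.

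**Figure D2:**
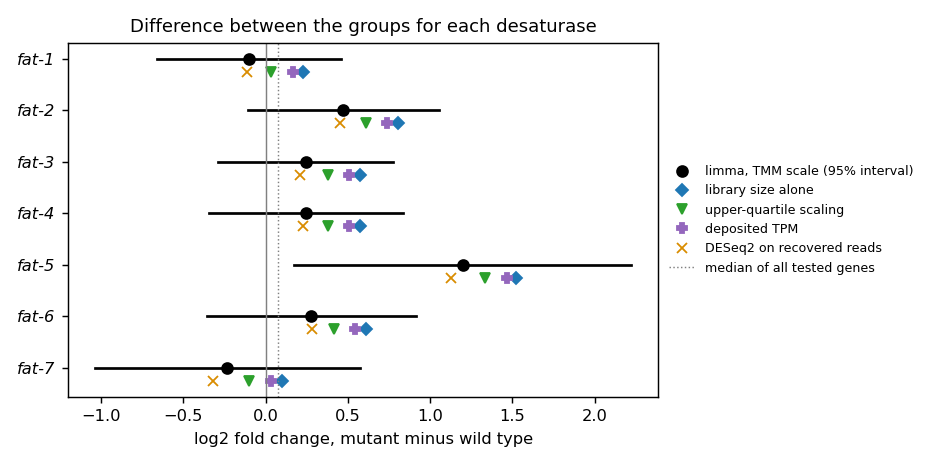
Log2 difference, mutant minus wild type (horizontal axis), of each desaturase: black points with lines are the limma estimate on the TMM scale with its 95% interval, coloured symbols the estimate under other scalings and DESeq2, and the dotted line the median of all tested genes. The interval of *fat-5* lies right of 0 and those of the other 6 genes cross it, while *fat-1* and *fat-7* have estimates on both sides of 0.

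Ratios between members of a library do not depend on the scaling between libraries. The ratio of *fat-7* to *fat-6*, both stearic acid desaturase genes, was 0.341, 0.517 and 0.373 in wild type and 0.240, 0.250 and 0.379 in the mutant, in CPM. Mutant libraries 1 and 2 were the lowest, and mutant library 3 lay inside the wild-type range. The mean log2 ratio was -1.31 ± 0.32 in wild type and -1.82 ± 0.37 in the mutant (SD, n = 3). The difference of -0.51 was not past the spread by a two-sided exact permutation test (p = 0.3), which cannot go below 0.1 with 3 against 3.

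*fat-5* took a larger share of the delta-9 transcripts in the mutant libraries, a ratio picked out after the values were seen and therefore given with no test. Per length, *fat-5* held 6.96%, 10.03% and 10.2% of the summed TPM of *fat-5*, *fat-6* and *fat-7* in wild type and 15.8%, 18.2% and 18.2% in the mutant. The share of *fat-7* was 30.2%, 37.9% and 30.9% in wild type and 21.2%, 21.2% and 28.4% in the mutant, again without overlap. The *fat-6* share overlapped, with means of 58.0% and 59.0%. The TPM ratio of *fat-5* to *fat-7* was 0.231, 0.265 and 0.330 in wild type and 0.745, 0.859 and 0.640 in the mutant, a difference of 1.45 in mean log2 ratio. The ratio of *fat-5* to *fat-6* was 0.111, 0.193 and 0.173 in wild type and 0.251, 0.301 and 0.341 in the mutant, a difference of 0.94. Both ratios separated the groups, as did *fat-2* to *fat-1*, at 1.67, 1.90 and 1.64 in wild type and 2.82, 2.82 and 2.16 in the mutant.

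The other ratios overlapped. *fat-2* to *fat-6* was 1.49, 1.49 and 1.66 in wild type and 1.71, 1.57 and 2.05 in the mutant, and *fat-3* to *fat-4* was 1.03, 0.420 and 0.891 against 0.788, 0.578 and 0.850. As a share of all desaturase TPM, *fat-2* had means of 32.0% in wild type and 37.0% in the mutant and *fat-5* of 3.28% and 6.21%, both higher in all 3 mutant libraries. *fat-1*, with means of 18.6% and 14.4%, and *fat-7*, with 11.98% and 8.35%, were lower in all 3. The shares of *fat-3*, *fat-4* and *fat-6* overlapped. For comparison, the levels of 48.6% of all tested genes had groups that did not overlap, in either direction. That figure is for levels of single genes and not for ratios or shares. These shares, and the ratios other than *fat-7* to *fat-6*, were not planned and carry no test. Shares of a sum are tied to each other, so a larger share of 1 member lowers the others.

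**Figure D3:**
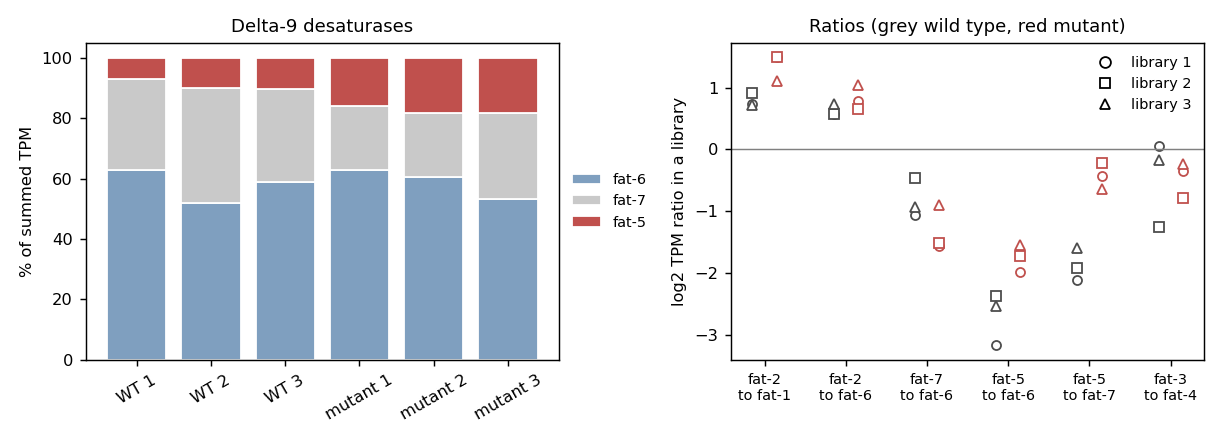
Left, share of the summed TPM of the delta-9 genes held by *fat-6*, *fat-7* and *fat-5* in each library (vertical axis, %); right, log2 TPM ratio of pairs of desaturases within a library (grey wild type, red mutant, symbols for the library number). The *fat-5* share is 6.96% to 10.2% in wild type and 15.8% to 18.2% in the mutant, and the ratios to *fat-6* and *fat-7* separate the groups.

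Much of the spread of the members within a group was shared. As log2 deviation from the gene's wild-type mean, the family median was -0.50, 0.40 and 0.17 in wild-type libraries 1, 2 and 3 and 0.04, 0.59 and 0.21 in the mutant libraries. Wild-type library 1 was the lowest of the 6 libraries for 6 of 7 members, and mutant library 2 was the highest for 4. Within the mutant, library 1 was lowest for 6 members and library 2 highest for 6. *fat-5* had the widest range, from -0.95 in wild-type library 1 to 1.75 in mutant library 2, and *fat-3* departed from the others, at 0.0046, -0.39 and 0.39 in wild type. The same direction appeared in other genes, and not in those of like length alone. The 3976 tested genes with over 1000 and up to 1600 exon bases, which span the members' lengths, had median deviations of -0.22, 0.10 and 0.11 in wild type and 0.037, 0.21 and 0.0048 in the mutant. The 4134 genes with up to 1000 exon bases were at -0.26, 0.18 and 0.079 in wild type and 0.037, 0.28 and -0.020 in the mutant. The 4033 genes with over 1600 and up to 3000 were at -0.13, 0.013 and 0.10 in wild type and -0.028, 0.045 and -0.055 in the mutant. The 1598 tested genes with over 3000 exon bases went the other way, at 0.20, -0.20 and -0.02 in wild type and 0.11, -0.22 and -0.19 in the mutant. The part of these library differences in the members' values was not tested.

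**Figure D4:**
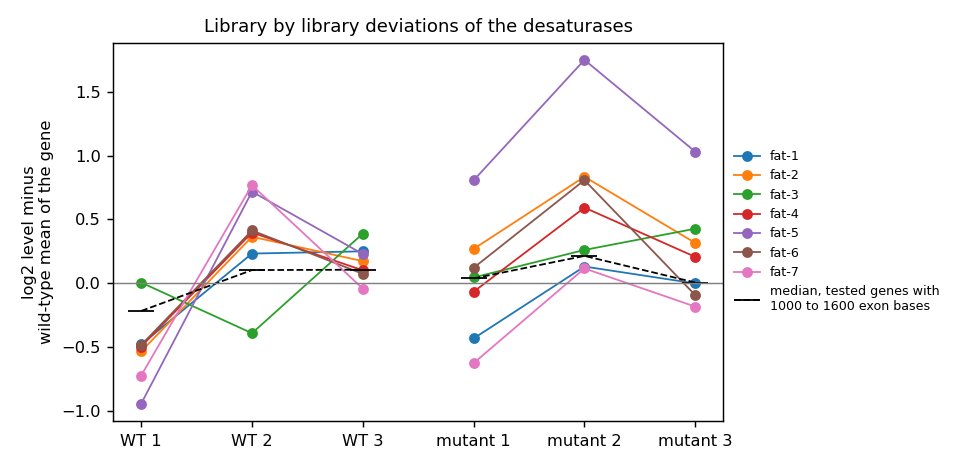
Log2 level of each desaturase minus its wild-type mean (vertical axis) in the 6 libraries; lines join the libraries of a group for legibility only, and the dashed line is the median of tested genes with 1000 to 1600 exon bases. Wild-type library 1 lies at or below -0.48 for 6 of 7 members, and *fat-5* reaches 0.81 to 1.75 in the mutant.

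Other genes of lipid metabolism were read from the same fit, in lists chosen with earlier results of these data known. Over 66 tested genes of 11 lists, limma called 1 as higher and 3 as lower in the mutant, beside the 8.84% and 13.4% of all tested genes, and the median log2 difference was 0.08. At an unadjusted p under 0.05 there were 13 of 66, beside 44.8% of all tested genes. edgeR called 3 of 66, beside 17.7% of all genes, and DESeq2 7, beside 28.6%. *elo-4*, an elongase family gene, was the 1 that rose, at 2.57, 5.02 and 4.76 scaled CPM in wild type and 7.87, 14.7 and 7.49 in the mutant. The 2 groups of *elo-4* did not overlap, and the log2 difference was 1.08 (SE 0.32, limma adjusted p = 0.0371). The other 8 elongases were not called. *elo-1* and *elo-2*, linked to the elongation of polyunsaturated chains, had log2 differences of -0.19 and -0.025, and *elo-5* and *elo-6*, linked to branched chains, of -0.23 and 0.028. *elo-7* had a difference of 0.93 (limma adjusted p = 0.0556, DESeq2 adjusted p = 0.0302).

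Of 4 genes that supply or build saturated chains, *acly-2* fell. It encodes ATP citrate lyase, which makes cytosolic acetyl-CoA, and was at 282, 248 and 303 scaled CPM in wild type and at 128, 105 and 213 in the mutant. All mutant libraries lay below all wild-type libraries, and the log2 difference was -0.96 (SE 0.27, limma adjusted p = 0.0351). The call of *acly-2* was lost with edgeR (adjusted p = 0.0507) and kept with DESeq2 (0.0277). *acly-1*, the acetyl-CoA carboxylase gene *pod-2* and the fatty acid synthase gene *fasn-1* were not called, with differences of -0.54, 0.0050 and 0.56. The elongation partners *let-767*, *hpo-8* and *art-1* had differences of -0.09, -0.03 and -0.12, none called. None of the 4 genes of cytochrome b5 electron transfer, which feeds electrons to desaturases, was called either, and *cytb-5.1* was at 101 ± 16.01 against 123 ± 13.3 scaled CPM (SD, n = 3; log2 0.29, limma adjusted p = 0.305).

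Among 13 genes listed as regulators of desaturase genes or partners of such regulators, the nuclear receptor gene *nhr-66* fell and the others were not called. A link of *nhr-66* to the desaturase genes was not tested. *nhr-66* encodes a partner of NHR-49 and was at 79.1, 70.8 and 87.9 scaled CPM in wild type and at 47.5, 36.4 and 58.5 in the mutant. Its groups did not overlap, and the log2 difference was -0.75 (SE 0.23, limma adjusted p = 0.0410; edgeR 0.0492, DESeq2 0.0396). *nhr-49* itself was at 109 ± 9.10 and 97.5 ± 3.56 scaled CPM (SD, n = 3; log2 -0.16, limma adjusted p = 0.541). *nhr-80*, a receptor gene linked to the delta-9 genes, had a difference of 0.31, the Mediator subunit gene *mdt-15* of -0.16 and the SREBP gene *sbp-1* of 0.12. The membrane fluidity genes *paqr-2* and *iglr-2* had differences of -0.21 and -0.45. Of 5 other genes linked to NHR-49, none passed limma, and 1 had an unadjusted p under 0.05. That gene was *fmo-2*, at 0.685 to 0.744 scaled CPM in wild type and 0.984, 2.41 and 3.93 in the mutant. It rested on few reads, 3, 9 and 10 in wild type and 7, 40 and 42 in the mutant. Its log2 difference was 0.91 (adjusted p = 0.0527) by limma with its pseudocount of 1. It was 1.79 (adjusted p = 0.0467) by edgeR and 1.81 (adjusted p = 0.0277) by DESeq2.

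Of 9 lipid binding protein genes, *lbp-9* fell, from 377, 519.9 and 497 scaled CPM in wild type to 249, 262 and 345 in the mutant. The groups of *lbp-9* did not overlap, and the log2 difference was -0.70 (SE 0.23, limma adjusted p = 0.0461). The call of *lbp-9* was lost with edgeR (adjusted p = 0.0584) and kept with DESeq2 (0.0283). *lbp-1* went the other way, with a log2 difference of 0.68 (limma adjusted p = 0.0729, DESeq2 adjusted p = 0.0489). No gene was called among 9 of phosphatidylcholine synthesis, 5 of the P450 genes linked to eicosanoids, 4 tested of triglyceride synthesis and 2 of other lipid desaturases or hydroxylases. In these lists *pmt-2*, a phosphoethanolamine methyltransferase gene, had a log2 difference of 0.21, *emb-8*, the P450 reductase gene, of -0.07, *lpin-1*, the lipin gene, of 0.06, and *fath-1*, a fatty acid hydroxylase gene, of -0.50. The phosphatidylcholine genes had a median of 0.28 with 7 of 9 positive. Each of the 4 called genes, *elo-4*, *acly-2*, *nhr-66* and *lbp-9*, kept its call in 1 of the 6 fits that left out a library, the fit without mutant library 3. Over these 6 fits the limma adjusted p ran from 0.0241 to 0.166 for *elo-4*, 0.00569 to 0.159 for *acly-2*, 0.0135 to 0.177 for *nhr-66* and 0.0246 to 0.172 for *lbp-9*. With upper-quartile scaling, library size alone and TPM, the 3 calls of lower genes were lost, with limma adjusted p of 0.0529, 0.0905 and 0.0673 for *acly-2*, 0.0620, 0.202 and 0.112 for *nhr-66* and 0.0515, 0.269 and 0.0933 for *lbp-9*. *elo-4* kept its call under these 3 scalings, and all 4 calls were lost with no filter on low values and without both replicate-1 libraries.

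**Figure D5:**
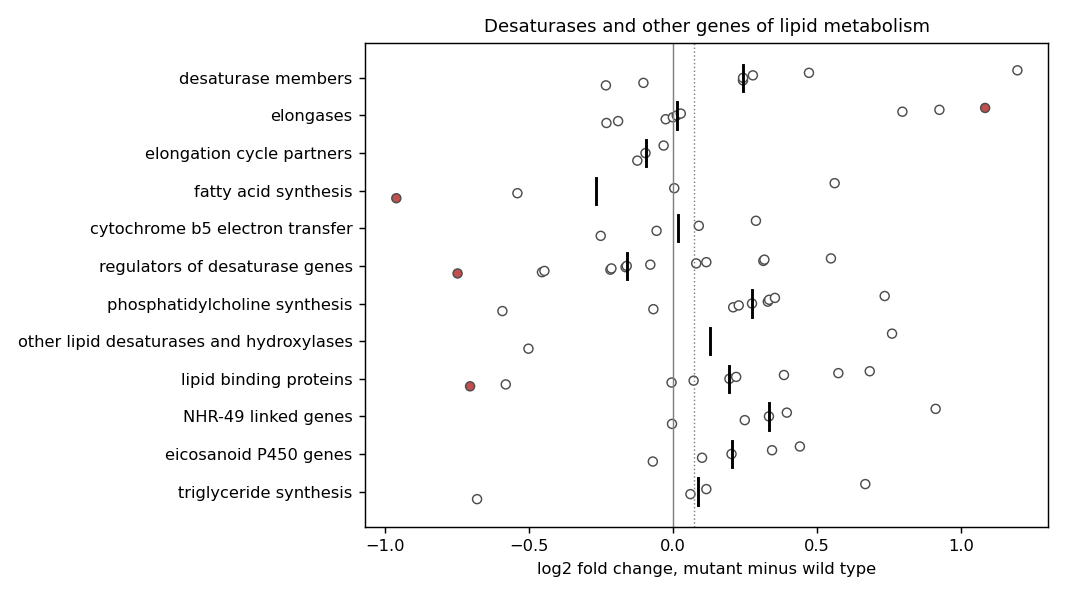
Log2 difference, mutant minus wild type (horizontal axis), of the tested genes in each list of lipid metabolism; filled points passed limma at an adjusted p of 0.05, black bars are list medians and the dotted line is the median of all tested genes. The 4 filled points are *elo-4* to the right and *acly-2*, *nhr-66* and *lbp-9* to the left, and the desaturase median is 0.24.

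Markers of tissues gave the following levels beside these results, and their calls by limma are to be read against the 8.84% of all tested genes that were called higher and the 13.4% called lower. The 11 markers of the intestine, a major site of desaturase expression, summed to 4453 to 5472 scaled CPM in wild type and 4735 to 5320 in the mutant, which overlap. The gene *asp-1* alone gave 2294 to 2544 of it in wild type and 2296 to 2505 in the mutant. By gene, 8 of 11 differences were positive (median 0.19), and 3 genes were higher without overlap, beside 22.6% of tested genes. Of the 11, the transporter gene *pgp-1* was called as higher. The 9 oocyte and eggshell markers summed to 3712 to 6677 in wild type and 905 to 3194 in the mutant, with 6 of 9 called as lower. The 7 epidermis markers were mixed. *col-19*, a collagen gene, and *lin-26*, a transcription factor gene, were called lower, with log2 differences of -0.87 and -0.92, while the other 5 had positive differences and were not called, and the list median was 0.43. Their sum was 2494 to 3102 scaled CPM in wild type and 1568 to 2000 in the mutant, almost all of it from *col-19*, and without *col-19* it was 106 to 190.2 and 148 to 395, which overlap. Sperm markers (6 genes) summed to 107 to 151 and 168 to 231 and neuron markers (6 genes) to 130 to 157 and 219 to 252, with 2 higher in each list. The 6 vitellogenin genes summed to 44444 to 165769 in wild type and 30476 to 55108 in the mutant, overlapping. None was called, but all 6 had negative differences (median -1.64), and *vit-1*, *vit-3* and *vit-4* were lower in every mutant library than in any wild-type library.

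By their sums, body wall muscle and pharynx markers were highest in the replicate-1 library of each group. The sums were 15382 and 1079 scaled CPM in wild-type library 1 and 12455 and 1001 in mutant library 1. In the other 4 libraries they were at most 6095 and 389. The pharynx marker *tnc-2* was lowest in wild-type library 1 (19.4, against 21.4 and 26.7 in libraries 2 and 3) and highest in mutant library 1. Tested genes with over 3000 exon bases also had their highest median deviations in the replicate-1 libraries, at 0.20 in wild type and 0.11 in the mutant. The part of gene length in the sums was not tested. No gene of these lists was at 0 in a library. *fat-5*, which separated the groups, thus did so beside lower sums of oocyte markers and higher sums of sperm and neuron markers, and the part of these tissues in its level was not tested. In mutant libraries 1, 2 and 3 the oocyte sums were 1703, 905 and 3194, beside *fat-5* levels of 93.9, 182 and 109.9.

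The genes most like each member were found by the root mean square difference of centred log2 levels over the 6 libraries, among 6997 tested genes with a mean log2 level of at least 4. For *fat-1* they were *coq-1* (0.0069) and *aqp-11* (0.055). For *fat-2* they were B0228.7 (0.051) and T05E11.9 (0.067), and for *fat-4* F07H5.3 (0.041) and *ent-7* (0.045). *fat-6* was followed most closely by F25H5.8 (0.063) and Y39B6A.5 (0.11), and *fat-7* by F22H10.3 (0.13) and F53H4.2 (0.15). *fat-3*, with its own order of libraries, was nearest to *ssp-10* and *msp-38* (0.13 for both), genes of the sperm-specific and major sperm protein families, whose near-identical copies can share reads. *fat-5* was nearest to *hpo-6* (0.15) and *tbb-6* (0.16), the latter a tubulin gene, and their log2 differences were 1.36 and 1.08 (limma adjusted p = 0.0590 and 0.0552). None of these 14 genes was called by limma.

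Among themselves, *fat-2*, *fat-4* and *fat-6* lay closest. The distance was 0.14 between *fat-2* and *fat-4*, 0.16 between *fat-2* and *fat-6* and 0.17 between *fat-4* and *fat-6*. In these pairs, 36 to 189 of 7003 genes were closer to a member than its partner was. *fat-7* was nearest to *fat-1*, at 0.28, and not to its paralog *fat-6*, and 189 of 7003 genes were closer to *fat-7* than *fat-1* was. *fat-5* was nearest to *fat-2*, at 0.44, and 180 of 7003 genes were closer to *fat-5* than *fat-2* was. The 6 libraries differ in depth and in tissue marker sums, so these distances describe the libraries and carry no test.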

How the data were processed

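The authors deposited 1 CPM and 1 TPM value per gene and library, per the file headers, and the submitters' processing notes name DESeq2 1.22.0, featureCounts 1.6.3, HISAT2 2.1.0 and Trimmomatic 0.36. Of build, annotation, strand and multiply matching reads, nothing is given in the sources used here. CPM values were whole multiples of 1 read (within 0.01 reads, 100% of nonzero values), so reads were recovered.

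CPM was divided by TMM factors and log2(scaled CPM + 1) was tested with limma 3.58.1 in R 4.3.3 (trend, robust, group as the only term). The 13756 genes that reached a CPM of 1 in 3 or more libraries entered, with Benjamini-Hochberg adjustment over all of them. Differences on this scale understate those of low genes. Alternatives were edgeR 4.0.16, DESeq2 1.42.0 and limma-voom on recovered reads, other scalings, pseudocounts of 0.1, 0.5 and 2, no filter, removed gene classes, a replicate block and left-out libraries. TMM over tested genes, the edgeR block and edgeR left-out fits were added after seeing the data.

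Members and lists were chosen with earlier results of these data known. Named genes were the 7 members, up to 3 called genes of a list (or its most abundant gene) and the 2 nearest genes of each member; others account for list members. *mogat-1* was not matched. Positions are from WBcel235, which may not be the authors' build. The design text calls the libraries biological replicates.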

Additional observations from a re-analysis of the deposited data

How the results depend on the processing

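The number of genes called changed with the filter and with the libraries kept. limma called 3061 genes, 115 with no filter and 125 without both replicate-1 libraries. With 1 library left out it called 267, 178 and 224 genes without wild-type libraries 1, 2 and 3, and 45, 39 and 4957 without mutant libraries 1, 2 and 3, and edgeR 25 to 5041. The design text names no pairing by replicate number. Deviations of same-numbered libraries had correlations of 0.35, 0.44 and -0.087 for numbers 1, 2 and 3, so those numbered 3 did not deviate together. The libraries numbered 1 correlated best with each other, as did those numbered 2. Wild-type library 3 correlated best with mutant library 2 (0.19). Whether the numbers mark a shared batch was not tested. With a replicate block limma called 5877 genes and edgeR 5094. The causes were not tested.

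No desaturase was called in the reported fit. *fat-5* was called by DESeq2 (log2 1.12), with upper-quartile scaling (1.33), on TPM (1.46) and with the replicate block in limma (1.20, adjusted p = 0.00101) and edgeR (1.20), which makes 1 member each, or 2 with the limma block, where *fat-2* (0.47, adjusted p = 0.0305) was called too. Over 29 alternatives *fat-5* stayed positive (0.77 to 1.56), as did *fat-2* (0.24 to 0.80), *fat-3* (0.042 to 0.57) and *fat-4* (0.029 to 0.57). Under library size, upper quartile and TPM, in that order, *fat-1* turned to 0.23, 0.032 and 0.16, *let-767* to 0.24, 0.039 and 0.17, *emb-8* to 0.26, 0.064 and 0.20 (and to 0.0012 without both replicate-1 libraries), *coq-1* to 0.21, 0.019 and 0.15 and *aqp-11* to 0.23, 0.042 and 0.17. Under library size and TPM, *fat-7* turned to 0.096 and 0.034, F22H10.3 to 0.14 and 0.076 and F53H4.2 to 0.19 and 0.13. With libraries left out, limma or edgeR, signs turned within -0.25 to 0.023 for *fat-1*, -0.030 to 0.51 for *fat-6*, -0.53 to 0.15 for *fat-7*, -0.19 to 0.024 for *let-767*, -0.047 to 0.17 for *lpin-1*, -0.27 to 0.012 for *coq-1*, -0.29 to 0.059 for *aqp-11*, -0.016 to 0.40 for F07H5.3, -0.10 to 0.46 for F25H5.8, -0.41 to 0.085 for F22H10.3 and -0.37 to 0.12 for F53H4.2. The *fat-7* to *fat-6* difference kept its sign (-0.72 to -0.33).

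List genes called numbered 4, but 7 by DESeq2 and with library size, 0 with no filter and without both replicate-1 libraries, 20 and 15 with the limma and edgeR block, and 0 to 7 with libraries left out.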
